A study of Rattus norvegicus with 35 samples.

Results

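Receptor modulators were set against aromatase inhibitors in bulk RNA sequencing of the hippocampus of ovariectomised rats. The 10 libraries of the selective estrogen receptor modulator (SERM) group came from rats given tamoxifen at 3.23 mg per kg or raloxifene at 9.68 mg per kg, 5 of each. The 10 libraries of the aromatase inhibitor (AI) group came from rats given exemestane at 0.16 mg per kg or anastrozole at 4.03 mg per kg, 5 of each. They were chosen by the treatment named in the labels, and make up 20 of the 35 libraries of the series. All were female Sprague Dawley rats ovariectomised at 6 months, left for a washout of 2 weeks, injected intraperitoneally once a day and sampled 7 days after treatment began. The other 15 libraries, 5 each from ovariectomised rats given estradiol at 0.16 mg per kg, ovariectomised rats given vehicle and rats with sham surgery, entered no test here, other than in the alternatives fitted on all 35 libraries, and are used for levels. The doses differ between the 4 drugs, and the labels give exemestane the same dose as estradiol.

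Tamoxifen and raloxifene bind the estrogen receptors and act as agonists in some tissues and as antagonists in others. Exemestane, a steroid, and anastrozole, a nonsteroidal triazole, block aromatase, the enzyme that makes estrogens from androgens and that the brain also holds. The ovary is the main source of circulating estrogen in intact females. Whether the hippocampus differs between the modalities is the question the comparison addresses.

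The libraries held 6.06 M to 10.3 M counts in the SERM group and 6.96 M to 12.1 M in the AI group. The share of counts held by Rn7sl1, a noncoding RNA that helps target proteins for secretion, lay between 2.90% and 6.49% in these 20 libraries. A threshold on it, chosen with earlier results of these data known, gave a low class, up to 3.84%, and a high class, from 5.06%. Of the SERM libraries 8 (3 tamoxifen and 5 raloxifene), and of the AI libraries 6 (4 exemestane and 2 anastrozole), were in the low class, so the class was a term of the main fits. Markers of hippocampal neurons summed to 2679 to 3750 CPM (counts scaled to the library total) in the SERM group and 2658 to 3649 CPM in the AI group, and 0 of the 6 neuron markers had an unadjusted p under 0.05. Ttr, a choroid plexus transcript, was over 100 CPM in 4 SERM and 5 AI libraries.

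No gene separated the SERM from the AI group. Of 13631 genes tested with edgeR's quasi-likelihood test, 0 (0%) had a Benjamini-Hochberg adjusted p under 0.05, and the smallest adjusted p was 0.887. DESeq2 and limma-voom also called 0, and the count was 0 with each of the 20 libraries left out in turn. At an unadjusted p under 0.05 there were 668 genes (4.9%), of which 324 (2.38%) were higher and 344 (2.52%) lower in the SERM group. In no gene (0%) did all 10 SERM libraries lie above or below all 10 AI libraries. The median fold change was -0.0012 on the log2 scale, with 6708 genes above 0.

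The intervals bound the size of any difference for most genes. The 95% interval of the fold change lay within 1.2-fold in either direction for 8934 genes (65.5%), within 1.5-fold for 12562 (92.2%) and within 2-fold for 13414 (98.4%). The width went with the level of the gene. Within 1.5-fold fell 76.1% of the 4021 genes with a mean under 10 CPM, 98.7% of the 7607 genes of 10 to 100 CPM, and 99.8% of the 2003 genes of 100 CPM or more. The fits treat the 10 libraries of a modality as replicates, although each modality holds only 2 drugs.

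**Figure D1:**
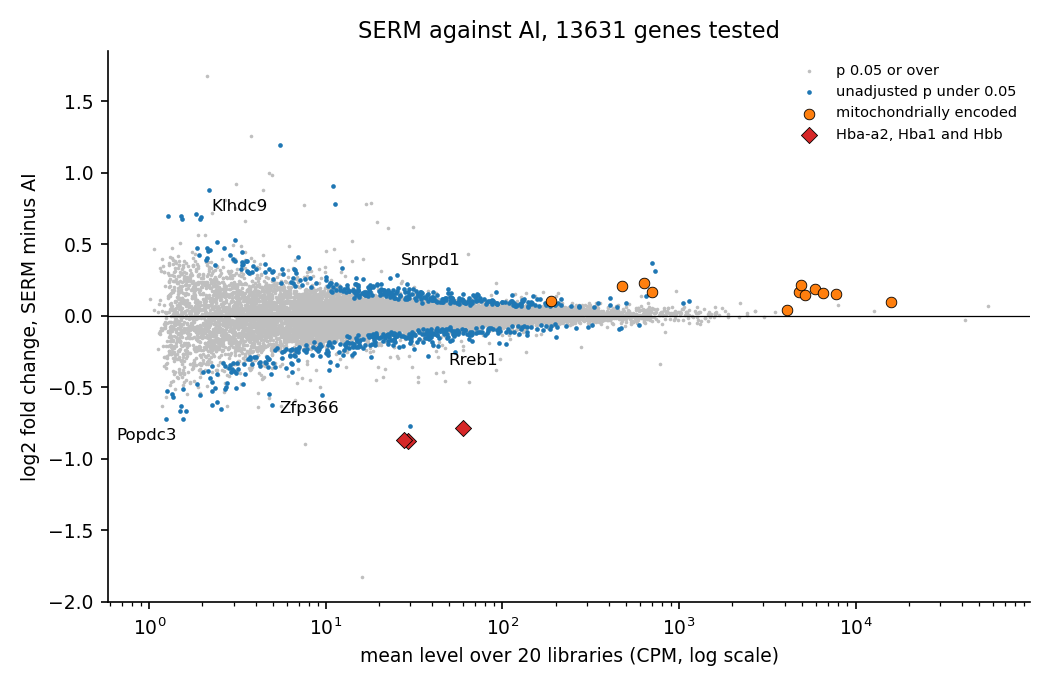
The log2 fold change (SERM minus AI, vertical axis) of each of the 13631 genes tested is plotted against its mean level over the 20 libraries in CPM (horizontal axis, log scale). Blue points have an unadjusted p under 0.05, orange points are the mitochondrially encoded genes, all above 0, and red diamonds are Hba-a2, Hba1 and Hbb, between -0.87 and -0.79, while no gene passed the adjusted test.

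The 20 genes of smallest p are described next as values, since none passed adjustment over all genes (adjusted p of 0.887 for the first). Each had an unadjusted p under 0.05 with any 1 library left out. The genes were chosen by their p in these same libraries, so this gives them no separate support.

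Hemoglobin transcripts, abundant in red cell precursors and also reported in some neurons, had the largest folds among the 20 genes. Hbb encodes a beta chain and Hba-a2 an alpha chain of adult hemoglobin. The files also hold an entry Hba1, a name that RefSeq lists as a synonym of both alpha genes, Hba-a2 and Hba-a1. These copies are nearly identical, so how counts were divided between the alpha entries is uncertain. The starts of Hba-a2, Hba-a1 and Hbb are shown because the Hba-a2 and Hbb entries had like folds and the alpha copies differ little even upstream. The Hba-a1 entry was under the filter on low counts and has no fold in the main fit. Each line gives the 100 bases before the annotated start, 5′ to 3′, from RefSeq on GRCr8 (the build the authors counted on is not given in the sources used here). The windows are chr10:15829139-15829238 for Hba-a2, chr10:15842581-15842680 for Hba-a1 and chr1:167663722-167663821 for Hbb, all on the minus strand. Capitals mark CCAAT or its reverse complement ATTGG, and ATAAA, the core of a TATA box (searched with its reverse complement TTTAT).
Hba-a2: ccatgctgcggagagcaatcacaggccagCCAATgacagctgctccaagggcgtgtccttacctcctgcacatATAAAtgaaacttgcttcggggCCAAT
Hba-a1: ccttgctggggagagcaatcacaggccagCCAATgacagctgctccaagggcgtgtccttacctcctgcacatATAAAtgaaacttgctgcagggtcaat
Hbb: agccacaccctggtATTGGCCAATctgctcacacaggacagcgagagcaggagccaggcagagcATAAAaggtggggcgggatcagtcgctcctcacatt

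The alpha windows were identical at 95 of 100 positions, and Hba-a2 and Hbb at 20 of 100 with no gaps allowed. Both alpha genes had a CCAAT 71 bases and an ATAAA 27 bases before the start. Hba-a2 had a further CCAAT 5 bases before the start, which Hba-a1 lacked. Hbb had its adjoining ATTGG and CCAAT 86 and 81 bases before the start and its ATAAA 36 bases before it. Of the 27457 promoters in the RefSeq table, 17.3% held CCAAT or ATTGG in this window, 18.5% held ATAAA or TTTAT, and 3.32% held both. The match describes these letters only.

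Hbb stood at 12.1, 31, 14.5, 18.3 and 18.4 CPM in the 5 tamoxifen libraries and at 17.3, 25.4, 17, 24.6 and 23.2 CPM in the 5 raloxifene libraries. It stood at 39.9, 41.7, 45.5, 18.2 and 31.5 CPM in the 5 exemestane libraries and at 22.8, 39.6, 52.1, 30.3 and 34 CPM in the 5 anastrozole libraries. The groups overlapped: 7 AI libraries were above the highest SERM library, and the other 3 lay within the SERM range. The log2 fold change was -0.87 ± 0.19 (SE), a 0.548-fold level with a 95% interval of 0.413 to 0.729, and edgeR's adjusted p was 0.887.

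Hba-a2 had the same pattern. Its levels ran from 13.5 CPM (median 18.7, highest 35.8) in the SERM group and from 15.7 CPM (median 39.0, highest 56.9) in the AI group, with a log2 fold change of -0.87 ± 0.19 (SE). For Hba1 the log2 fold change was -0.79 ± 0.21. Of 2 further beta-chain entries, LOC100134871, whose gene identifier is Hbbl1 in RefSeq, was at -0.77 ± 0.19 and Hbb-b1 was at -0.36 ± 0.22 with an interval from -0.83 to 0.11. Thus 4 of the 5 tested globin entries had an unadjusted p under 0.05 and were lower in the SERM group, where 2.52% of all genes were. Hba1 and LOC100134871 were added to the list after their values were seen. The entries may share reads and are not independent of each other.

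Summed over Hba-a2, Hba1 and Hbb, the level was 83.5 ± 27.5 CPM in the SERM group and 151 ± 42.4 CPM in the AI group (SD, n = 10 each). All SERM libraries but 1 were at or under 102 CPM, and all AI libraries but 1 at or over 108 CPM. The drugs of a modality were close to each other: 85.7 ± 36.8 CPM with tamoxifen and 81.2 ± 18.5 CPM with raloxifene, and 140 ± 42.2 CPM with exemestane and 161 ± 44.6 CPM with anastrozole (SD, n = 5 each). In the groups outside the comparison the sum was 161 ± 155 CPM with estradiol, 169 ± 60.7 CPM with vehicle and 129 ± 74.6 CPM with sham surgery (SD, n = 5 each), so the estradiol and sham groups had an SD larger than the gap between the modalities. Alas2, the first enzyme of heme synthesis in red cell precursors, was under the filter at 0.490 ± 0.409 CPM in the SERM group and 0.981 ± 0.602 CPM in the AI group (SD, n = 10 each). How much blood each tissue piece held was not measured, and its part in the result was not tested.

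**Figure D2:**
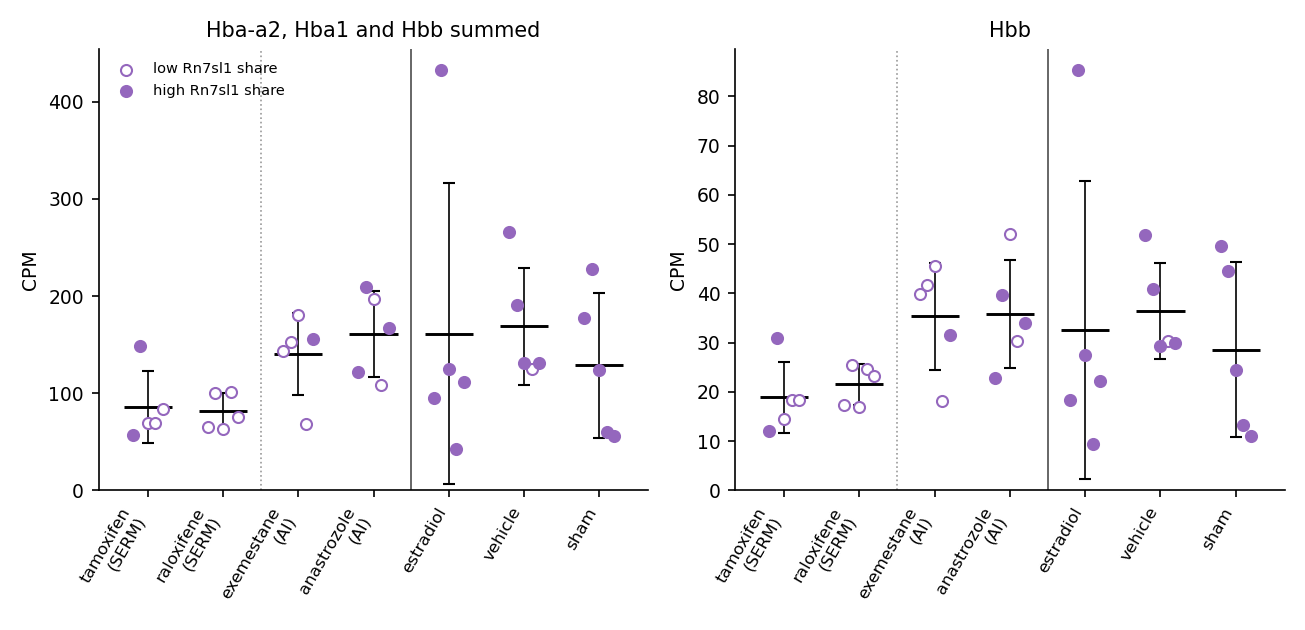
The summed level of Hba-a2, Hba1 and Hbb (left) and the level of Hbb (right) are given in CPM for each library. Horizontal lines are group means and bars are SD, with 5 libraries a group. Open circles have a low and filled circles a high Rn7sl1 share. Tamoxifen and raloxifene libraries lie mostly below exemestane and anastrozole libraries, and 1 estradiol library reaches 433 CPM in the sum.

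Within the Rn7sl1 classes the sum had medians of 72.7 CPM in 8 SERM and 148 CPM in 6 AI libraries of the low class. In the high class the medians were 103 CPM in 2 SERM and 162 CPM in 4 AI libraries. Without the 9 libraries of Ttr over 100 CPM the median log2 fold change of the 5 globin entries was -1.01, against -0.79 with them. With the libraries of high Rn7sl1 share only, 0 of the 5 had an unadjusted p under 0.05, and the median was -0.66.

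Genes of the mitochondrial genome, which encode subunits of the respiratory chain and ATP synthase, were higher in the SERM group in all 12 members tested. Their median log2 fold change was 0.16, against -0.0012 over all genes. Of the 12, 10 had an unadjusted p under 0.05, where 2.38% of all genes were higher at that p, and 0 passed adjustment. The folds ran from 0.04 for Mt-co2, a subunit of cytochrome c oxidase, to 0.23 for Mt-nd4l, a subunit of complex I. These transcripts share polycistronic precursors and are not independent. The count of 10 was 3 without anastrozole, with a median of 0.10, 5 with the Rn7sl1 share as a continuous term, and 1 with the libraries of high Rn7sl1 share only, with a median of 0.07. Without the class term the median was 0.28.

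Mt-nd4l reached 554, 608, 805, 664 and 709 CPM in the tamoxifen libraries and 701, 759, 716, 702 and 706 CPM in the raloxifene libraries. It reached 644, 681, 541, 665 and 589 CPM in the exemestane libraries and 509, 445, 576, 502 and 516 CPM in the anastrozole libraries. The raloxifene libraries were the most uniform and all above every AI library. The tamoxifen libraries of high Rn7sl1 share lay within the AI range, and so did tamoxifen replicate 4, of low share, at 664 CPM. The log2 fold change was 0.23 ± 0.056 (SE), with edgeR's adjusted p at 0.887. Mt-nd4l was also 0.22 ± 0.068 higher with exemestane than with anastrozole (edgeR adjusted p = 0.163), beside the 0.23 between the modalities. Vehicle libraries averaged 607 ± 75.3 CPM (SD, n = 5).

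As a share of all counts, mitochondrially encoded genes made up 6.79 ± 0.980% in the SERM group and 5.85 ± 0.908% in the AI group (SD, n = 10 each), beside 5.80 ± 0.592% with vehicle (SD, n = 5). In a two-sided permutation test with 100000 resamples p was 0.0419, and 0.209 after adjustment over the 5 library measures tested (total counts, Rn7sl1 share, this share, genes detected and Ttr), of which none passed. Among the SERM and AI libraries the share moved with the Rn7sl1 class. In the low class it was 7.23% on average in 8 SERM libraries, 6.94% to 7.77%, and 6.46% in 6 AI libraries, 5.80% to 7.14%. In the high class it was 5.0% in 2 SERM libraries and 4.93% in 4 AI libraries. An exact two-sided permutation test within the classes, added after the data were seen, gave a mean difference of 0.559 percentage points with p = 0.00959, or 0.0480 adjusted over the 5 measures. What sets the Rn7sl1 share is not given in the sources used here, and its part in the result was not tested beyond the class term.

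**Figure D3:**
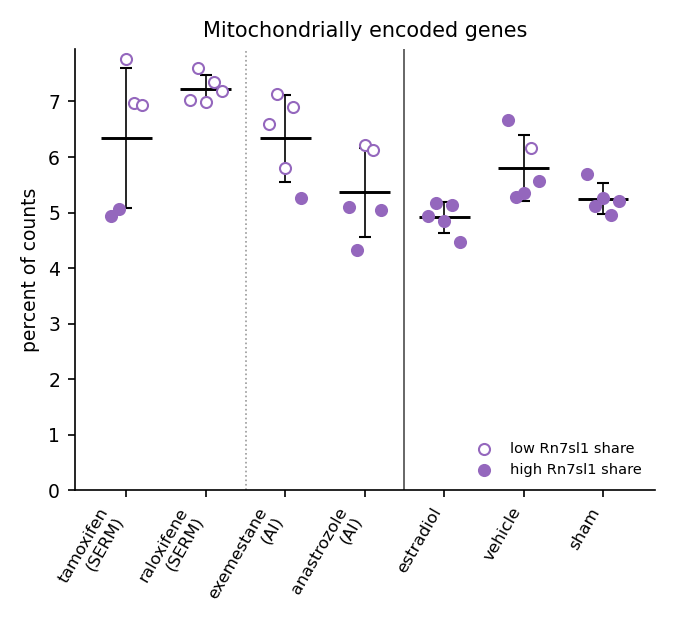
The share of counts taken by mitochondrially encoded genes, in percent, is plotted for each library by treatment, with group means (lines) and SD (bars), 5 libraries a group. Open circles, of low Rn7sl1 share, lie above filled circles in tamoxifen, exemestane and anastrozole, the 3 drug groups that have both. In vehicle, which also has both, the open circle at 6.16% lies below the highest filled circle at 6.66%. The low-class libraries of tamoxifen and raloxifene lie between 6.94% and 7.77%.

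The nuclear genes of the respiratory chain were closer to the background. Of 74 tested, 53 were above 0 with a median of 0.03, 6 had an unadjusted p under 0.05 and were higher (background 2.38%), and 0 were lower. They were Cox7c at 0.15 ± 0.044 and Cox7b at 0.14 ± 0.043, small subunits of cytochrome c oxidase, Uqcrb and Uqcr10 of complex III, Ndufa3 of complex I and Atp5mf of ATP synthase. All 74 intervals lay within 1.5-fold. Cytosolic ribosomal protein genes had 9 of 73 higher and 1 lower at that p, with a median of 0.01. Rps13, of the small subunit, had the smallest p at 0.16 ± 0.041, and Rps10l1 was the lower one at -0.22 ± 0.086.

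Snrpd1, a core protein of spliceosomal ribonucleoproteins, had the smallest p of all genes. It stood at 21.9, 19.4, 28, 25.1 and 27.7 CPM with tamoxifen and 25.7, 28.5, 26.4, 27.5 and 28.5 CPM with raloxifene. With exemestane it stood at 23.3, 20.6, 23.6, 18.9 and 19.7 CPM, and with anastrozole at 16.8, 21.8, 22.3, 21.2 and 16.7 CPM. The SERM libraries of low Rn7sl1 share were all above the AI libraries, and the 2 tamoxifen libraries of high share were not. The log2 fold change was 0.27 ± 0.060 (SE, interval 0.14 to 0.39), and vehicle libraries averaged 18.1 ± 3.81 CPM (SD, n = 5). Eif5, a translation initiation factor, was 0.12 ± 0.033 higher and Zfp36l2, a protein that promotes decay of mRNAs, 0.19 ± 0.053 higher.

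Zfp366, which encodes a zinc finger protein known in human cells as a corepressor of estrogen receptor alpha, had the second smallest p. It was at 3.76 ± 0.444 CPM in the SERM group and 5.80 ± 1.56 CPM in the AI group (SD, n = 10 each), with a log2 fold change of -0.55 ± 0.13. Of the 5 anastrozole libraries, 4 lay from 7.10 to 8.19 CPM, above the highest exemestane library at 5.24 CPM, and the remaining one was at 3.90 CPM. The exemestane libraries, 4.17 to 5.24 CPM, overlapped the SERM libraries, 3.16 to 4.39 CPM, and vehicle libraries averaged 5.85 ± 0.922 CPM (SD, n = 5).

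The remaining genes of smallest p had modest folds. Lower in the SERM group were Rreb1, a zinc finger factor downstream of Ras, at -0.21 ± 0.053, Kdm8, a JmjC-domain oxygenase, at -0.34 ± 0.091, and the phosphatase Dusp18 at -0.18 ± 0.049. Also lower were Pfkfb4, an enzyme that sets fructose 2,6-bisphosphate, at -0.34 ± 0.094, and Popdc3, a membrane protein of the Popeye family, at -0.72 ± 0.21. Popdc3 is scarce, at 1.14 ± 0.231 CPM in the SERM group and 1.97 ± 0.675 CPM in the AI group (SD, n = 10 each). Higher were Prex2, a Rac exchange factor, at 0.13 ± 0.034, and Dbt, the transacylase of branched-chain amino acid breakdown, at 0.20 ± 0.053. Calcrl, the receptor subunit for CGRP and adrenomedullin, was 0.26 ± 0.073 higher, Ndrg2, abundant in astrocytes, 0.14 ± 0.040, and Klhdc9 0.69 ± 0.19 at 2.31 ± 0.791 CPM in the SERM group and 1.60 ± 0.606 CPM in the AI group (SD, n = 10 each).

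Steroid receptors had small folds between the modalities. Of 7 tested members of the list of receptors and aromatase, 0 passed and 0 had an unadjusted p under 0.05, with a median fold of 0.06 and all 7 intervals within 1.5-fold. The median was -0.0095 without anastrozole and -0.03 without the libraries of Ttr over 100 CPM. With all 35 libraries fitted 2 members were higher and 1 lower at that p, and some other alternatives gave 1 or 2. Esr1, estrogen receptor alpha, was at 2.72 ± 0.638 CPM in the SERM group and 2.55 ± 0.677 CPM in the AI group (SD, n = 10 each), and its log2 interval ran from -0.31 to 0.43. Pgr, the progesterone receptor and a classical estrogen-induced gene, was at 23.2 ± 2.07 CPM in the SERM group and 22 ± 2.48 CPM in the AI group (interval -0.07 to 0.20). The folds of Esr1 and of Pgr changed sign under some alternatives.

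The second estrogen receptor, the membrane receptor and aromatase were under the filter on low counts of the pooled fit. Esr2 was at 0.820 ± 0.428 CPM in the SERM group and 1.14 ± 0.543 CPM in the AI group, and Gper1 at 0.884 ± 0.675 CPM in the SERM group and 0.930 ± 0.211 CPM in the AI group (SD, n = 10 each). Cyp19a1, aromatase itself, was at 1.23 ± 0.555 CPM in the SERM group and 1.27 ± 0.552 CPM in the AI group. The ranges of the SERM and AI groups overlapped for all 3. The filter of the 4-drug fit kept Esr2 and Cyp19a1. There Esr2 was at 1.06 ± 0.392 CPM with tamoxifen and 0.581 ± 0.340 CPM with raloxifene (SD, n = 5 each), a log2 difference of 1.08 ± 0.48 (SE) with an interval from 0.10 to 2.06 and an edgeR adjusted p of 1.0.

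Genes that estrogen is known to regulate were balanced. Of 22 tested, 11 lay above and 11 below 0, with a median of 0.0007, and 0 had an unadjusted p under 0.05. Bdnf, a neurotrophin with estrogen-responsive expression in the hippocampus, had the smallest p of the list, at 0.12 ± 0.062. Its level was 34.8 ± 3.74 CPM in the SERM group and 30.7 ± 4.51 CPM in the AI group (SD, n = 10 each). Greb1, a direct estrogen receptor target, was at -0.31 ± 0.17 with an interval from -0.66 to 0.04.

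The full palindromic estrogen response element, GGTCA and TGACC with 3 bases between them, was found in the promoter window (250 bases before to 50 after the start) of 7 of the 27457 RefSeq genes, 1 of them among the 10027 tested genes that matched by symbol. One arm of it, GGTCA or TGACC on its own or as part of the full element, was in 36.4% of those tested genes, and in 40.2% of all promoters. The median log2 fold change was -0.0038 with an arm and -0.0010 without, and 5.58% and 4.80% had an unadjusted p under 0.05. These letters describe the windows and carry no statement on receptor binding.

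**Figure D4:**
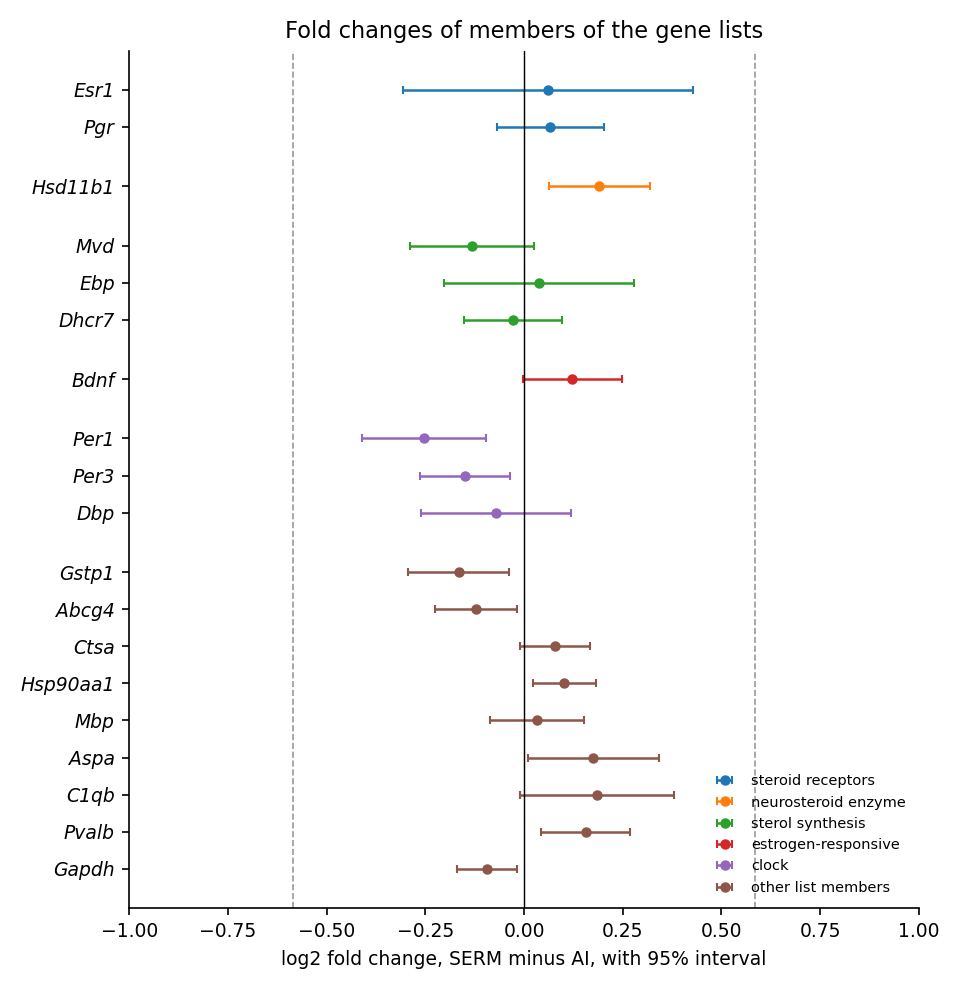
Log2 fold changes (SERM minus AI) of members of the gene lists are shown as points with their 95% intervals, coloured by list. Dashed lines mark a 1.5-fold difference in each direction, and the interval of every gene shown lies between them.

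Enzymes that make and convert neurosteroids had 4 of 15 tested members higher at an unadjusted p under 0.05 (background 2.38%), 0 lower and 0 passing adjustment, with a median of 0.01. Hsd11b1, which regenerates active glucocorticoid, stood at 33.4 ± 2.82 CPM in the SERM group and 29 ± 3.28 CPM in the AI group (SD, n = 10 each), or 0.19 ± 0.062 on the log2 scale. The others were Cyp27a1 at 0.35 ± 0.15 and Cyp7b1 at 0.11 ± 0.053, both sterol hydroxylases, and Hsd17b11 at 0.14 ± 0.060.

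The late steps of cholesterol synthesis, which tamoxifen and raloxifene are known to inhibit at the enzyme level in cells, differed little between the pooled groups. None of 12 tested genes had an unadjusted p under 0.05, all 12 intervals lay within 1.5-fold, and the median was 0.01. Ebp, a sterol isomerase that binds tamoxifen, was at 6.93 ± 1.47 CPM in the SERM group and 6.76 ± 0.928 CPM in the AI group (SD, n = 10 each), and Dhcr7 was at -0.03 ± 0.061. Within the modalities Ebp was at -0.31 ± 0.16 for tamoxifen minus raloxifene and at 0.33 ± 0.16 for exemestane minus anastrozole, neither passing adjustment. Without raloxifene 1 of the 12 genes was higher and 1 lower at that p, with a median of -0.04, and without anastrozole 1 was lower. The 17 genes of the earlier steps and of sterol uptake gave 0 at that p in the main fit, with all intervals within 1.5-fold. Mvd, a mevalonate pathway enzyme, came closest at -0.13 ± 0.077. In cholesterol efflux 2 of 14 were lower at that p (background 2.52%), among them Abcg4, a sterol transporter, at -0.12 ± 0.051. Lysosomal genes, which cationic amphiphilic drugs can induce, gave 0 of 30, all within 1.5-fold, and Ctsa, a lysosomal carboxypeptidase, came closest at 0.08 ± 0.044.

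Clock genes had 3 of 19 members lower and 1 higher at an unadjusted p under 0.05 (background 2.52% and 2.38%), 0 passing adjustment, and a median of -0.04. The median was 0.03 without anastrozole, with 1 lower, and 0.01 with the libraries of low Rn7sl1 share only, with 2 lower. It was 0.02 without the libraries of Ttr over 100 CPM, with 4 lower, and 1 was lower without raloxifene. With the high class only the median was -0.16, with 1 of 19 above 0 and 3 lower. Without exemestane it was -0.09, with 5 lower. The 3 lower in the main fit were period genes, repressors of the clock. Per1 was at 47.9 ± 8.20 CPM in the SERM group and 60.4 ± 12.3 CPM in the AI group (SD, n = 10 each), or -0.25 ± 0.076. By drug, Per1 averaged 52.6 CPM with tamoxifen and 43.2 CPM with raloxifene, and 52.5 CPM with exemestane and 68.4 CPM with anastrozole, so the tamoxifen and exemestane means were close. Vehicle libraries averaged 67.8 ± 13.3 CPM (SD, n = 5). Per3 was at -0.15 ± 0.056 and Per2 at -0.13 ± 0.054. Dbp, an output gene of the clock, was at -0.07, with a sign that changed without raloxifene. The hour of tissue collection is not given in the sources used here, and its part was not tested.

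Per1 is also induced by glucocorticoids, and that list had 3 of 16 lower and 1 higher at an unadjusted p under 0.05 (background 2.52% and 2.38%). Ddit4, an inhibitor of mTORC1, was at -0.28 ± 0.093 and Errfi1, an inhibitor of epidermal growth factor receptor, at -0.16 ± 0.056, while the metallothionein entry Mt2A was at 0.22 ± 0.10. In the list of immediate-early genes 2 of 30 were lower, Per1 and Dusp5, and 1 was higher, the nuclear receptor Nr4a3 at 0.13 ± 0.043 (same background). Per1 is counted in the clock, glucocorticoid and immediate-early lists, so their counts are not independent. Foxo3 and Foxo1, transcription factors restrained by insulin signalling, were at -0.16 ± 0.061 and -0.10 ± 0.047. They were the 2 of 20 members of the insulin list that were lower at an unadjusted p under 0.05 (background 2.52%).

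Of 28 chaperone genes 21 were above 0, with a median of 0.04. The 2 with an unadjusted p under 0.05 (background 2.38% higher) were Hsp90aa1 and Hsp90b1, at 0.10 ± 0.039 and 0.09 ± 0.041. They are the cytosolic and endoplasmic reticulum forms of HSP90, which hold steroid receptors and secretory proteins. The count of 2 was 0 without the class term, with the Rn7sl1 share as a continuous term, without tamoxifen or with the low class only. It was 5 without the libraries of Ttr over 100 CPM, 4 without raloxifene and 3 with the high class only. Without exemestane 2 were higher and 2 lower. Among xenobiotic and glutathione genes 2 of 26 were lower at that p (background 2.52%), Gstp1, a glutathione transferase, at -0.17 ± 0.062 and Abcc1, an efflux pump, at -0.12 ± 0.048. In glycolysis 2 of 21 were lower, Gapdh at -0.09 ± 0.037 and Pfkl at -0.14 ± 0.056, and 2 were higher, Hk2 and Aldoc. Pdk2, which restrains pyruvate dehydrogenase, was at 0.11.

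No gene of the cell type lists passed the test, and the counts given here are of genes higher at an unadjusted p under 0.05, where 2.38% of all genes were. Astrocyte genes had 3 of 18, Ndrg2, Glul, which encodes glutamine synthetase, at 0.09 ± 0.032, and Aldoc. Of the 18 astrocyte genes, 11 lay above and 7 below 0, with a median of 0.02. Myelin genes had 1 of 19, Aspa, which breaks down N-acetylaspartate, at 0.18 ± 0.082, while Mbp, a main myelin protein, was at 0.03 ± 0.058. In GABA and interneuron genes Pvalb, of fast-spiking interneurons, was at 0.16 ± 0.055 and Vip at 0.18 ± 0.089, 2 of 17. That list had no common direction, with 8 members above and 9 below 0 and a median of -0.0075. Gabrg1, a GABA-A receptor subunit, was 1 of 12 at 0.10 ± 0.046. Microglia, endothelial, excitatory neuron, dentate granule and CA field lists had 0, and C1qb, a complement gene of microglia, was at 0.19 with an interval from -0.01 to 0.38. In bulk tissue fewer cells of a type and less RNA per cell cannot be told apart.

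Genes of tissue next to the hippocampus ranged widely within both modalities. All 9 tested choroid plexus genes were below 0, with a median of -0.37, and 0 had an unadjusted p under 0.05. The direction turned with the libraries used. With the high Rn7sl1 class only, which holds 2 SERM libraries, the filter on low counts kept 15 genes of the list rather than 9. There 15 of 15 were above 0, with a median of 0.82. Without anastrozole replicate 4 it was 6 of 9, with a median of 0.03. Without tamoxifen replicate 2 the median was -1.06. Ttr ran from 0.496 to 2767 CPM in the SERM group and from 0.732 to 2316 CPM in the AI group. Of 8 tested ependymal genes 1 was lower and 1 higher at an unadjusted p under 0.05 (background 2.52% and 2.38%). Rsph1, of motile cilia, was lower at -0.65 ± 0.20, and the ependymal marker Rarres2 was higher at 0.41 ± 0.18. Zfhx3, from the list of thalamus and habenula, was at -0.20 ± 0.079, the only one of 11 members at that p (background 2.52% lower and 2.38% higher).

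**Figure D5:**
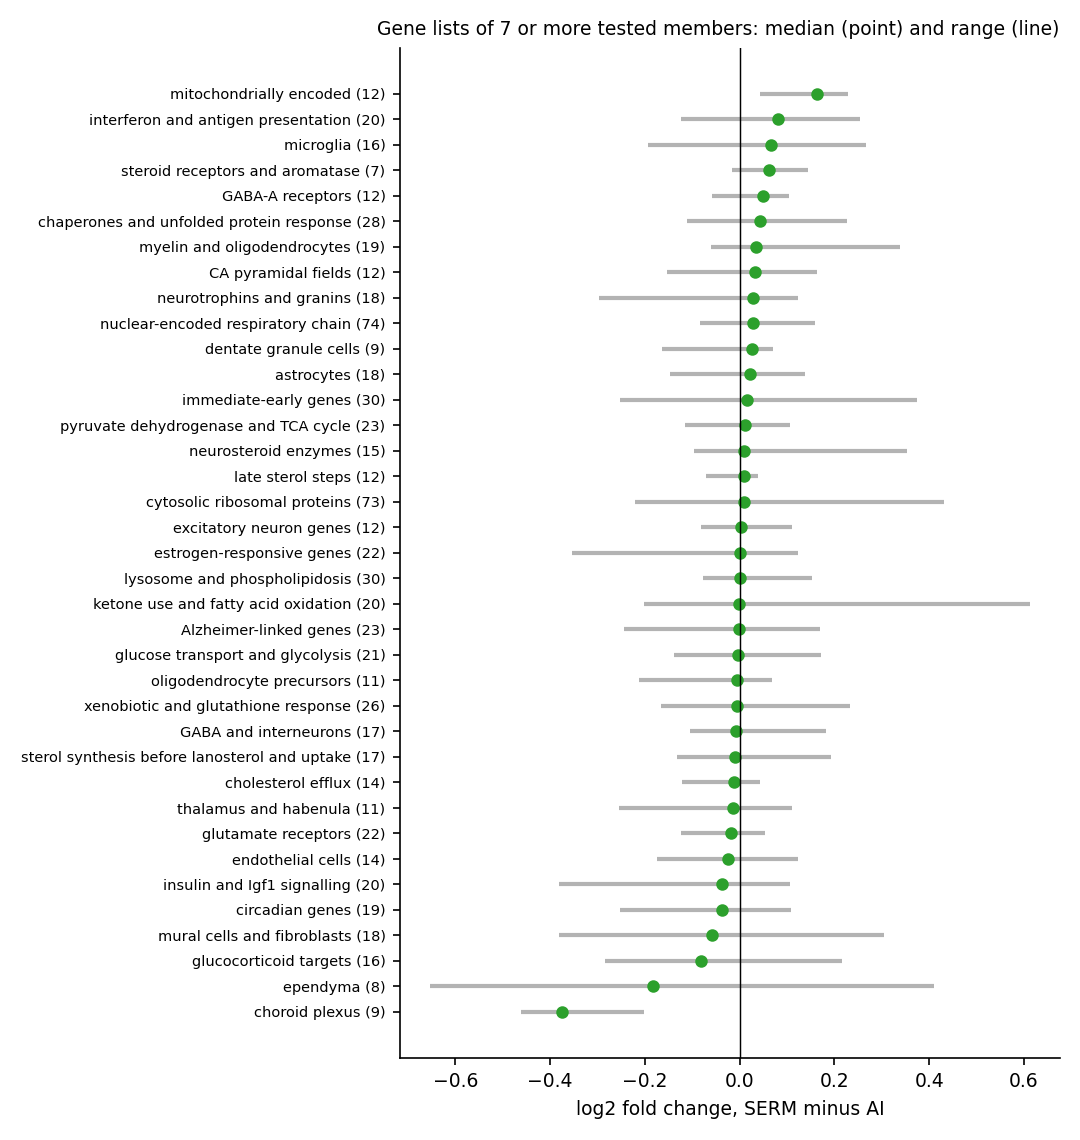
The median (green point) and the range (grey line) of the log2 fold change, SERM minus AI, are shown for each gene list of 7 or more tested members, with the number tested in brackets. The mitochondrially encoded list is the only one shown whose whole range lies above 0, and choroid plexus the only one whose whole range lies below 0. In the high Rn7sl1 class alone, 9 of 12 genes of the mitochondrially encoded list and 15 of 15 of the choroid plexus list were above 0. The filter kept 15 choroid plexus genes there and 9 in the fit shown.

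The drugs inside a modality were also compared. In a fit with the 4 drugs as groups, 14108 genes were tested and 4 (0.0284%) differed among the drugs by edgeR's quasi-likelihood test at an adjusted p under 0.05. The median absolute log2 difference was 0.07 between tamoxifen and raloxifene and 0.09 between exemestane and anastrozole, beside 0.05 between the pooled groups, where each group holds 10 libraries rather than 5. Tamoxifen against raloxifene gave 1 gene (0.00709%). This was LOC690035, whose gene identifier is Kiaa0586 in RefSeq, a gene for a centrosomal protein needed for cilia. It was at 24.7, 26.9, 31.3, 31.9 and 38.5 CPM with tamoxifen and at 26.9, 22.9, 23, 23.3 and 20.6 CPM with raloxifene, a log2 difference of 0.55 ± 0.081 (SE, edgeR adjusted p = 0.00356), and the count was 0 without tamoxifen replicate 5. Without the class term, and with all 35 libraries, both this count and the 4 genes among the drugs were 0, with smallest adjusted p for tamoxifen against raloxifene of 0.628 and 0.0632 in edgeR.

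Exemestane against anastrozole gave 27 genes (0.191%), 19 higher and 8 lower with exemestane. Among the higher were Ccdc88a, an actin-binding protein of cell migration, at 0.28 ± 0.046 (edgeR adjusted p = 0.0105), Chm, a Rab escort protein, at 0.43 ± 0.072 and Zbtb20, a factor of hippocampal CA1 identity, at 0.29 ± 0.052. Rock1, a kinase that acts on the actin cytoskeleton, was at 0.31 ± 0.056, and Ube3a, a ubiquitin ligase, at 0.25 ± 0.050. Lower with exemestane were Chpf, which extends chondroitin chains, at -0.28 ± 0.048, Rims3, a presynaptic scaffold protein, at -0.70 ± 0.13, Scap, the sterol sensor that escorts SREBP, at -0.18 ± 0.038, and Sqstm1, an autophagy receptor, at -0.20 ± 0.042. Exemestane had 4 and anastrozole 2 libraries of the low Rn7sl1 class. The count was 0 without the class term, 8 without exemestane replicate 5, 1 without anastrozole replicate 3 and 4 when all 35 libraries were fitted. Whether this difference between the inhibitors exceeds that between the modulators was not tested.

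Leaving out 1 drug shows what the pooled result rests on. Without exemestane, so that anastrozole alone stood for the AI group, 10 genes passed, all higher in the SERM group, among them Mt-nd4l, Mt-nd3 and Eif5. Without tamoxifen 1 gene passed, LOC690035, which was lower in the SERM group. Without raloxifene or without anastrozole 0 passed.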

How the data were processed

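Per the labels' protocols, mRNA was selected by its poly(A) tail, made into strand-marking libraries where the RNA quality score exceeded 7, and read as 100 bp pairs. The submitters' processing notes name Salmon and DESeq2, with no version. The authors deposited estimated counts per gene (expected counts held as whole numbers) for 15059 entries, and a normalized signal. The deposited signal is not a plain scaling of the counts: it was used only as per-gene offsets in an alternative, with 1894 of 301180 factors imputed. Annotation and build are not given in the sources used here. Of the entries, 13091 matched a RefSeq symbol and 1132 carry an Ensembl identifier only.

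Counts were fitted in edgeR 4.0.16 (R 4.3.3) with TMM factors, filterByExpr, and the robust quasi-likelihood F-test, with modality and Rn7sl1 class as terms. The class came from a threshold on the share of counts. The 4-drug fit used drug and class. P values were adjusted by Benjamini-Hochberg over all genes tested, with a threshold of 0.05. Standard errors come from the fold and its F statistic, intervals have 95% confidence, and CPM uses TMM-scaled totals. The common biological coefficient of variation was 0.103, and replicate pairs differed by 2.57 to 35.8 times counting error (chi-squared per degree of freedom), so each library was kept as its own sample. The labels do not say whether each library is from 1 rat, so p values measure the spread between these samples. Alternatives used limma 3.58.1 and DESeq2 1.42.0, and permutation tests scipy. The fit was tested on simulated data.

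The members, gene lists and tests were chosen with earlier results of these data known. Named genes were the 20 of smallest p with a symbol and at least 1 CPM (fewer than 10 having passed), from each list the member of smallest p, a fixed set of steroid, sterol and clock genes, and the genes of smallest p among drugs. Some of these are not reported here. Named after their values were seen were LOC100134871, Hbb-b1, Alas2, LOC690035, the list members given at an unadjusted p under 0.05 beyond the first, Greb1, Mt-co2, Mt-nd3 and the genes called between exemestane and anastrozole after the first 5. Lists got no set test. No number in the titles is common to samples of different groups, and no pairing was used.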

Additional observations from a re-analysis of the deposited data

Results flagged for a closer look

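Single libraries stood far from the others of their group in 21 of 300 sets of values checked (7%), where chance gives about 1 in 20. In each, the gap to the nearest library was large for the range of the group (Dixon's ratio).

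Exemestane replicate 5, the only exemestane library of high Rn7sl1 share at 5.81% (next 3.84%), recurred. It was the highest of its group for Rps13 at 53.1 CPM, Mvd at 22.1 CPM, Per1 at 61.3 CPM and Gapdh at 540.1 CPM. It was the lowest for Dbt at 19.4 CPM, Eif5 at 162 CPM and Hsp90aa1 at 860.0 CPM. Other exemestane libraries were lowest for Hba-a2 at 15.7 CPM (replicate 4, next 35.5) and Dusp18 at 33.4 CPM (replicate 1).

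Among anastrozole libraries, replicate 4 was lowest for Zfp366 at 3.90 CPM (next 7.10), and replicate 2 had the highest total of the AI group at 12.1 M. In the SERM group tamoxifen replicate 2 had the highest globin sum at 149 CPM (next 102) and, among tamoxifen libraries, the highest Kdm8 at 11.4 CPM. Tamoxifen replicate 3 had the fewest genes detected, 14868, both among tamoxifen and among SERM libraries. Tamoxifen replicate 1 was highest for Pvalb at 27.2 CPM.

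Raloxifene replicate 3 was lowest of the SERM group for Esr1 at 1.28 CPM, and highest among raloxifene libraries for Gapdh at 432 CPM. Raloxifene replicate 2 was highest of its group for Mt-nd4l at 759 CPM, and replicate 5 highest of the SERM group for Gstp1 at 56.1 CPM.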

How the results depend on the processing

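The count between SERM and AI was 0 under 12 of 16 alternatives and with each library left out. It was 1 with libraries of high Rn7sl1 share only (an entry known by identifier, Mt-ENSRNOG00000030478), 1 without tamoxifen, 10 without exemestane and 1 without libraries of Ttr over 100 CPM. Without the class term the counts among the 4 drugs, between tamoxifen and raloxifene and between exemestane and anastrozole were 0, 0 and 0, and with all 35 libraries 0, 0 and 4. With 1 library left out they ran from 2 to 30, 0 to 2 and 1 to 43, with the most in each without tamoxifen replicate 2. Taken within the Rn7sl1 classes, the difference in the mitochondrially encoded share was 0.559 percentage points and passed, in a test added after the data were seen. Over 45 genes, log2 folds changed sign as follows. With high Rn7sl1 share only, Esr1 was at -0.0014, Ebp at -0.0790, Dhcr7 at 0.000829 and Mbp at -0.0481. Without anastrozole Esr1 was at -0.0177 and Ebp at -0.0943, and without raloxifene Ebp at -0.0816 and Dbp at 0.0176. Mbp was at -0.0269 without exemestane and at -0.0287 without the class term, and without libraries of Ttr over 100 CPM Esr1 was at -0.198 and Pgr at -0.0145. With 1 library left out the folds ran from -0.0110 to 0.145 for Esr1, -0.0373 to 0.0909 for Ebp and -0.0526 to 0.00349 for Dhcr7. The cause was not tested. No paired analysis was possible because the titles carry no shared replicate numbers. Precision was lowest for genes under 10 CPM, and the high class holds only 2 SERM libraries.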
